A study of Mus musculus with 8 samples.

Results

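The genes described here were 8 genes of endothelin signalling and of the Hand factors, chosen by name: the ligands Edn1 and Edn3, the receptors Ednra and Ednrb, the converting enzyme Ece1, and the transcription factors Hand1, Hand2 and Gsc. Of these, 7 had a probe set annotated to that gene alone, out of 18193 genes with such a probe set, and all 7 passed the filter on low values with 13543 genes in all. No probe set carried the name Ednra in the annotation used here, so Ednra was not analysed. RNA came from mouse embryos and was measured on 8 Affymetrix arrays. The series title gives the stage as E11.5 and calls the controls wild type. There were 4 origins with 1 control and 1 FAK mutant array each. The first was cranial neural crest cells of dissected head and thorax, sorted for p75 and pooled from 3 embryos per array. The other origins are labelled LM, OFT and UM, head/neck, and these names are kept because the labels do not spell them out. FAK is focal adhesion kinase, a tyrosine kinase of integrin adhesion sites, and p75 is the surface receptor encoded by Ngfr. The allele, the strain, any Cre driver and the number of embryos behind the LM, OFT and UM arrays are not stated in the labels.

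Endothelins are short secreted peptides that are made as longer precursors, cut to an intermediate by furin-type proteases and then to the active form by Ece1. They act on a pair of G protein-coupled receptors: Ednra prefers Edn1 to Edn3, whereas Ednrb binds both. In the embryonic lower jaw, Edn1 from epithelium, paraxial mesoderm and endothelium acts on Ednra of neural crest cells, and the Dlx5, Dlx6 and Hand2 genes depend on that signal. Edn3 and Ednrb act in the neural crest cells that become melanocytes and the enteric nervous system. Hand1 and Hand2 are basic helix-loop-helix factors of the heart, the lower jaw and, for Hand2, sympathetic neurons. Gsc is a homeobox factor of the branchial arches.

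The upstream regions of Hand2 and Gsc are shown because these were the genes higher in LM than in UM. Each holds the 250 bases before the gene's start in RefSeq on the GRCm38.p6 build, read 5′ to 3′ on the gene's strand. Hand2 lies at chr8:57320733-57320982 on the plus strand and Gsc at chr12:104473237-104473486 on the minus strand. Capitals mark letters that matched the motifs given after the sequences.
Hand2: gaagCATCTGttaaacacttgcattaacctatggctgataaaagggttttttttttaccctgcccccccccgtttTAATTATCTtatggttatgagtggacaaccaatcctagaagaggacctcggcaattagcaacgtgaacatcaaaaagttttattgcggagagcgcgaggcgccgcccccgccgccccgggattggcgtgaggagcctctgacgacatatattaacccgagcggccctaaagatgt
Gsc: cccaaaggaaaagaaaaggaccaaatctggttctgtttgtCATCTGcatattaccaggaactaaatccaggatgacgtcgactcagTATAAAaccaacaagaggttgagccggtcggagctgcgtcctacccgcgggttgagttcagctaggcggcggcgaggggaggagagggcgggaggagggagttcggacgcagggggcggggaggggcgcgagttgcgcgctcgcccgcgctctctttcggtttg
Motifs were searched on both strands and were chosen with these sequences in view. The E-box CATCTG, a form bound by Hand and Twist factors, stood 246 to 241 bases before the start of Hand2 and 210 to 205 bases before that of Gsc, and 14.4% of 32851 promoter windows of this length hold it. In Hand2, the homeobox core TAATTA at 175 to 170 overlapped a GATA motif (AGATAA, read on the other strand) at 172 to 167. These motifs occur in 4.84% and 9.99% of the windows. In Gsc, TATAAA stood at 164 to 159, as it does somewhere in 12.4% of windows. A MEF2 motif, CTA and TAG with 4 bases between them, held by 3.20% of windows, was found in neither. In all, 7 of the 8 genes had 10 such entries, and the windows of Edn1, Edn3, Ece1, Ednra and Ednrb held none of these letters. Hand1 had no entry. A match is a run of letters and does not show binding.

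The label of the sorted cells was checked against Ngfr, which read 1043 and 1422 on the p75 control and mutant arrays and 47.0 to 149 on the other arrays. Summed intensity of the neural crest markers Ngfr, Sox10, Tfap2a, Foxd3, Ets1 and Pax3 was 4358 to 4918 in p75 and 890 to 1771 elsewhere. The p75 arrays also stood apart in RNA quality: for Gapdh, the 3′ over 5′ ratio of the control probe sets was 2.82 and 4.91 there, against 0.700 to 0.986 elsewhere. For Actb this ratio was 1.57 to 1.65 in p75 and 1.42 to 1.94 elsewhere. The part of RNA quality, sorting and pooling in any difference between p75 and another origin was not tested. Ptk2, the gene of FAK, had no probe set of that name, so the genotype labels were not checked against it.

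Levels of the 7 measured genes differed mainly by origin. By the brightest probe set of each gene, Ednrb was highest in p75, and Ece1 was higher in p75 and OFT than in LM and UM. Edn1 was highest in OFT, Hand2 was high in both LM and OFT, and Edn3 and Gsc read highest in LM. Differences are given on the scale of log2(intensity + 32), which understates the change of dim genes. Values after ± are limma's moderated standard error, with n = 2 arrays per origin, 1 control and 1 mutant. Adjusted p-values are limma's, corrected by the Benjamini-Hochberg method over 13543 genes, and a gene is called higher or lower at an adjusted p under 0.05. The p-values measure the spread between these arrays, since no origin had replicates of 1 genotype. Because this is RNA from many cells, fewer cells of a type and less RNA per cell cannot be told apart.

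In LM against UM, 2 of 7 were called higher, beside 0.738% of all genes tested, and 0 lower, beside 0.82%. In OFT against LM, 3 were higher, beside 8.77% of genes, and 1 was lower, beside 2.18%. In OFT against UM, 5 were higher, beside 9.01%, and 0 lower, beside 3.09%. The sorted cells differed from the other origins in many genes. In p75 against LM, 2 were higher, beside 26.1% of genes, and 4 lower, beside 15.9%. In p75 against UM, 3 were higher, beside 26%, and 1 lower, beside 16%. In p75 against OFT, 2 were higher, beside 19.2%, and 4 lower, beside 15.4%. Comparisons that share an origin share its arrays. The median difference of the 7 genes was largest in OFT against UM, at 1.21 against 0.01 over all genes tested. Of the 27 calls among 42 differences between origins, 17 held under every alternative processing run and 10 were lost under at least 1, as named gene by gene below.

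**Figure D1:**
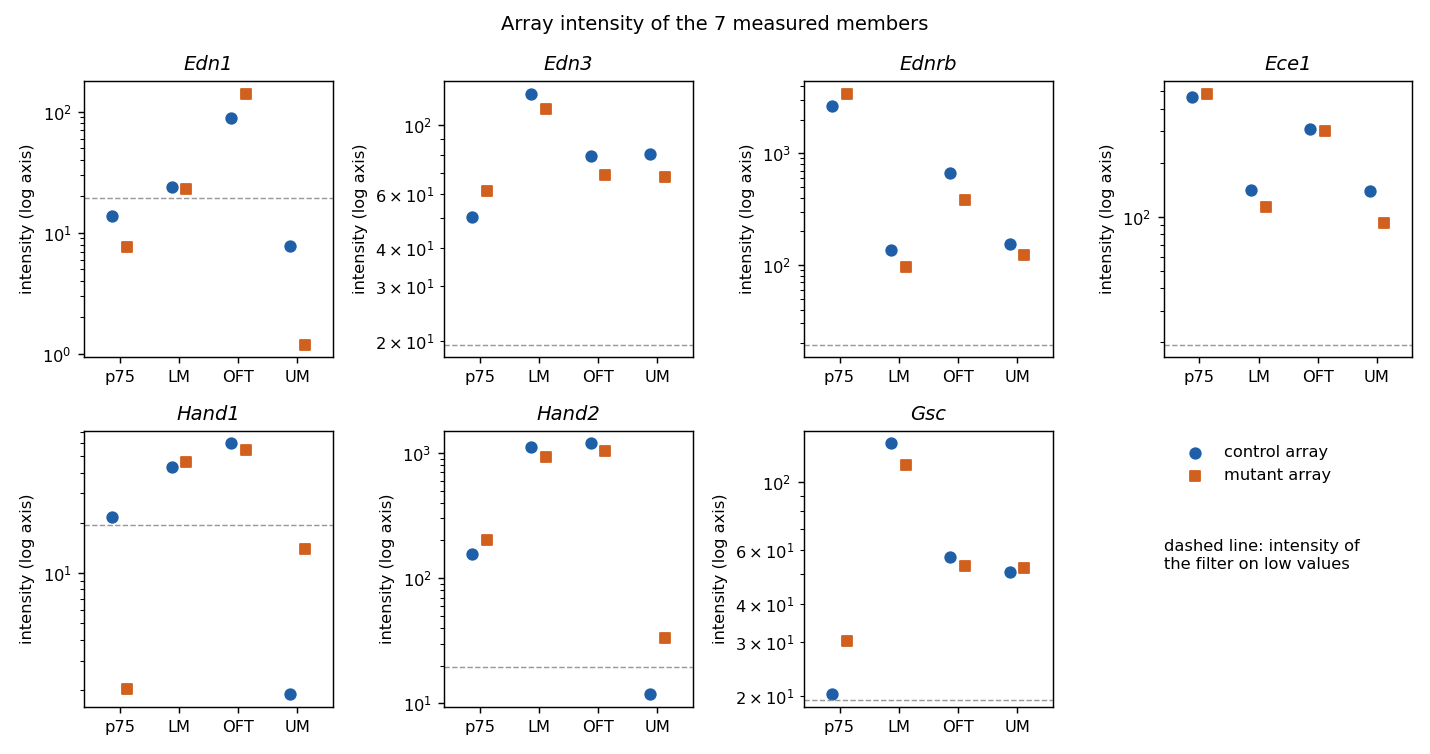
Intensity of each measured gene (vertical log axis, arbitrary linear units) by origin, with 1 control array (circle) and 1 mutant array (square) each; the dashed line is the filter on low values, 19.4. Ednrb lies above all other arrays in p75, and Hand2 lies below all others in UM. The Ednrb arrays of UM and LM overlap, as do the Hand2 arrays of LM and OFT. Hand1 in p75 reads 21.8 on the control and 2.02 on the mutant array.

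Edn1, the ligand of the lower jaw pathway, read brightest in OFT. Its probe set 1451924_a_at read 87.9 on the OFT control and 141 on the OFT mutant array. It read 23.9 and 23.0 in LM, 13.8 and 7.59 in p75, and 7.79 and 1.19 in UM, in the same order of genotypes. Both OFT arrays lay above all others, and the p75 and UM arrays, which overlapped, lay under the filter intensity of 19.4. OFT was 1.99 ± 0.21 above UM (adjusted p = 5.22e-05) and p75 differed from OFT by -1.76 ± 0.21 (adjusted p = 8.59e-05). OFT was 1.38 ± 0.21 above LM (adjusted p = 0.00108), a call lost with a pseudocount of 1, where the difference was 2.20 and the adjusted p = 0.127. Further down the order, LM and p75 differed by 0.38 ± 0.21 (adjusted p = 0.169) and p75 and UM by 0.23 ± 0.21 (adjusted p = 0.412). Endothelial cells are a known source of Edn1. Of 8 endothelial markers, 4 were higher in OFT than in LM, 4 were higher in OFT than in UM and 8 were lower in p75 than in OFT. Their summed intensity was 1627 to 1932 in OFT, 992 to 1117 in LM, 992 to 1125 in UM and 347.3 to 347.9 in p75, where Pecam1 alone was under the filter intensity on both arrays. Heart muscle markers moved the same way, 8 of 8 being higher in OFT than in LM and in UM, with sums of 17864 to 20299 in OFT, 692 to 1063 in LM and 60.3 to 151 in UM. Epithelium is another known source. Of 8 surface epithelium markers, 2 were higher and 3 lower in OFT than in LM, and 0 were higher and 4 lower in OFT than in UM. Their sums were 1786 to 1825 in OFT, 1440 to 1517 in LM, 2143 to 2556 in UM and 456 to 534 in p75. The part of any of these cell types in the Edn1 difference was not tested.

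Edn3, the ligand that acts mainly through Ednrb, varied least between origins. Probe set 1438696_at read 127 and 113 on the LM control and mutant arrays, 79.5 and 68.8 in OFT, 80.4 and 68.0 in UM, and 50.4 and 61.3 in p75. The LM arrays were the highest and the p75 arrays the lowest, and OFT and UM overlapped. Only p75 against LM passed the test, with a difference of -0.79 ± 0.18 (adjusted p = 0.00399). Without the p75 control it was -0.63 and no longer passed (adjusted p = 0.056). LM was 0.52 ± 0.18 above OFT (adjusted p = 0.0884) and 0.52 ± 0.18 above UM (adjusted p = 0.311). UM against p75 gave 0.27 ± 0.18 (adjusted p = 0.24). The other 3 probe sets of Edn3 also read highest in LM, but their p75 against LM differences were smaller, between -0.16 and -0.66.

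Ece1, which releases active endothelins from their precursors, read highest in p75 and next in OFT by its brightest probe set. Probe set 1455741_a_at read 466 and 484 on the p75 control and mutant arrays, 308 and 302 in OFT, 141 and 113 in LM, and 139 and 92.3 in UM. The p75 and OFT arrays stood above all LM and UM arrays, which overlapped. The difference from LM was 1.68 ± 0.19 in p75 (adjusted p = 4.29e-05) and 1.09 ± 0.19 in OFT (adjusted p = 0.00245). From UM it was 1.80 ± 0.19 in p75 (adjusted p = 2.53e-05) and 1.21 ± 0.19 in OFT (adjusted p = 0.000966). The dimmer probe sets 1434177_at and 1441423_at gave smaller differences, 0.38 and 0.37 for p75 against LM and 0.19 and 0.40 for p75 against UM. For OFT they gave 0.75 and 0.05 against LM and 0.57 and 0.08 against UM. The step between p75 and OFT was 0.59 ± 0.19 (adjusted p = 0.0288) and did not hold. With all probe sets of Ece1 averaged it was 0.18 (adjusted p = 0.353), since 1434177_at read lower in p75 than in OFT by 0.38 (difference -0.38). It was also lost with a pseudocount of 1 (0.64, adjusted p = 0.096) and without the p75 mutant (0.44, adjusted p = 0.235), the OFT control (0.49, adjusted p = 0.2) or the OFT mutant (0.69, adjusted p = 0.107).

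Ednrb showed the widest range of the endothelin genes. Probe set 1437347_at read 2643 on the p75 control and 3423 on the p75 mutant array. It read 668 and 383 in OFT, 155 and 122 in UM, and 135 and 95.3 in LM. The p75 arrays lay above all others and the OFT arrays above those of UM and LM, which overlapped. The sorted cells were 4.38 ± 0.24 above LM (adjusted p = 2.49e-07), a 20.8-fold difference on this scale. They were 4.17 ± 0.24 above UM (adjusted p = 3.65e-07) and 2.50 ± 0.24 above OFT (adjusted p = 1.72e-05). OFT in turn was 1.89 ± 0.24 above LM (adjusted p = 0.000218) and 1.67 ± 0.24 above UM (adjusted p = 0.000489). UM and LM differed by 0.22 ± 0.24 (adjusted p = 1). The probe sets of Ednrb agreed on OFT above UM but not on the other steps. 1423594_a_at also read higher in p75 than in OFT, by 2.50, but 1426314_at read lower, with a difference of -0.38. In LM against UM, 1426314_at gave -0.51 and 1423594_a_at 0.12. Of 6 neural crest markers, which include Ngfr, the gene of the receptor used for sorting, 5 were higher in p75 than in LM. In p75 against OFT, 5 were higher and 1 lower, and against UM 4 were higher and 1 lower. In OFT they did not follow Ednrb over UM: 2 were higher and 2 lower, with sums of 1648 to 1720 in OFT and 1619 to 1771 in UM. In OFT against LM, 2 were higher and 1 lower. The neuron markers Tubb3, Elavl3, Elavl4, Stmn2, Prph and Nefl were all higher in p75 than in LM and UM, with sums of 2335 to 4133 in p75 and 274 to 1188 in LM and UM. In OFT their sum was 1282 to 2338, and 5 of 6 were higher than in LM and 2 of 6 higher than in UM. Their part in the Ednrb level was not tested.

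**Figure D2:**
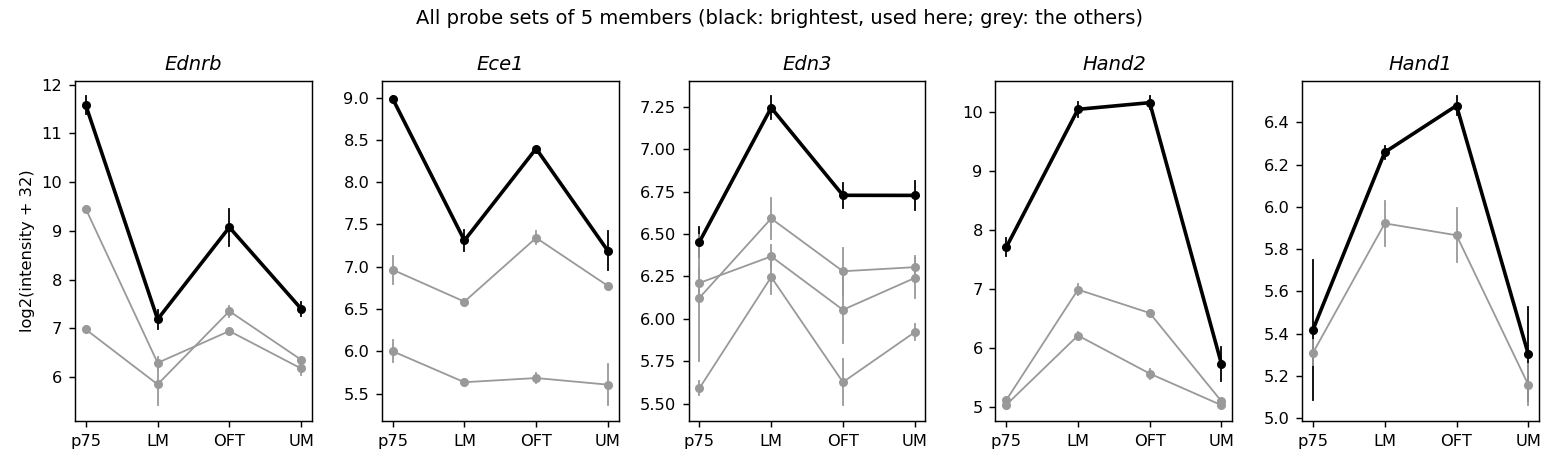
Mean log2(intensity + 32) of the 2 arrays of each origin (vertical axis) for every probe set of the 5 genes that have several; vertical lines join the control and the mutant array. The grey lines follow the black line of the brightest probe set for Hand1 and Edn3 in having LM or OFT highest, whereas 1 grey probe set each of Ednrb and Ece1 reads higher in OFT than in p75.

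Hand2, the factor that depends on Edn1 and Ednra in the lower jaw, was high in LM and OFT and dim in UM. Probe set 1436041_at read 1195 and 1030 on the OFT control and mutant arrays and 1119 and 936 on those of LM. It read 156 and 201 in p75, and 11.8 and 33.0 in UM. The LM and OFT arrays overlapped, both lay above p75, and UM lay below all others. LM was 4.31 ± 0.22 above UM (adjusted p = 1.95e-06), a 19.8-fold difference on this scale and, with Alx1 in the other direction, the smallest adjusted p of that comparison. OFT was 4.42 ± 0.22 above UM (adjusted p = 6.65e-08). By this probe set the sorted cells lay between, at 1.97 ± 0.22 above UM (adjusted p = 4.11e-05). Their differences were -2.34 ± 0.22 from LM (adjusted p = 1.35e-05) and -2.45 ± 0.22 from OFT (adjusted p = 1.1e-05). LM and OFT did not separate by the brightest probe set, at 0.11 ± 0.22 (adjusted p = 0.795). Its dimmer probe sets 1422221_at and 1443854_at read lower in OFT than in LM, by differences of -0.40 and -0.64. In p75 against UM they gave 0.018 and 0.0055, with all p75 and UM arrays under the filter intensity. The place of p75 above UM thus rests on the brightest probe set alone. The facial mesenchyme markers Prrx1, Prrx2, Pdgfra, Twist1, Msx1 and Alx1 had sums of 10237 to 10784 in UM, 8324 to 9746 in LM and 4071 to 4909 in OFT. Without Alx1, which read 2702 and 2588 in UM and 264 and 284 in LM, the sums were 7535 to 8196 in UM and 8040 to 9482 in LM, and overlapped. In LM against UM, 2 of these 6 genes were lower and 0 higher, while Prrx1 gave 0.55 ± 0.22 (adjusted p = 0.455).

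Hand1, the relative of Hand2, was dim on all arrays. Probe set 1417525_at read 59.9 and 54.6 on the OFT control and mutant arrays, 42.9 and 46.2 in LM, 21.8 and 2.02 in p75, and 1.88 and 14.0 in UM. The OFT and LM arrays lay above the filter intensity and above both other origins, which overlapped. OFT was 1.18 ± 0.23 above UM (adjusted p = 0.00546), and p75 differed by -0.84 ± 0.23 from LM (adjusted p = 0.0126) and by -1.06 ± 0.23 from OFT (adjusted p = 0.00453). Each of these calls was lost with a pseudocount of 1, with adjusted p = 0.205, 0.156 and 0.136. The p75 mutant array carried much of the latter pair: without it the differences were -0.44 (adjusted p = 0.225) and -0.66 (adjusted p = 0.101). Without the LM mutant, p75 against LM gave -0.76 (adjusted p = 0.057). OFT against UM was lost without the OFT control (1.16, adjusted p = 0.077), the OFT mutant (1.19, adjusted p = 0.0527) or the UM control (0.84, adjusted p = 0.0836). LM against UM did not pass, at 0.95 ± 0.23 (adjusted p = 0.0783), but passed without the UM mutant (1.29, adjusted p = 0.0439) and with both Hand1 probe sets averaged (0.86, adjusted p = 0.0329). OFT and LM differed by 0.22 ± 0.23 (adjusted p = 0.611).

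Gsc was highest in LM and lowest in p75. Its single probe set, 1421412_at, read 133 and 114 on the LM control and mutant arrays, 56.7 and 53.1 in OFT, 50.7 and 52.3 in UM, and 20.2 and 30.1 in p75. No arrays of different origins overlapped, although OFT and UM differed by 0.06 ± 0.18 alone (adjusted p = 0.879). The difference of p75 from LM, -1.45 ± 0.18 (adjusted p = 9.14e-05), held under every alternative. The others did not. LM was 0.89 ± 0.18 above UM (adjusted p = 0.028), but with a pseudocount of 1 it gave 1.24 (adjusted p = 0.166) and with no filter 0.89 (adjusted p = 0.0517). It was also lost without the LM control (0.77, adjusted p = 0.275), the UM control (0.88, adjusted p = 0.166), the UM mutant (0.91, adjusted p = 0.161) or either OFT array (0.89, adjusted p = 0.064). OFT against LM was -0.84 ± 0.18 (adjusted p = 0.00969) and was lost with a pseudocount of 1 (-1.15, adjusted p = 0.0677). It was lost too without the LM control (-0.71, adjusted p = 0.1), the OFT control (-0.88, adjusted p = 0.1) or the OFT mutant (-0.79, adjusted p = 0.101). Against OFT, p75 gave -0.61 ± 0.18 (adjusted p = 0.0213), which was lost without the p75 control (-0.45, adjusted p = 0.174), the OFT control (-0.56, adjusted p = 0.136) or the OFT mutant (-0.65, adjusted p = 0.116). Against UM, p75 gave -0.55 ± 0.18 (adjusted p = 0.0276). This was lost with a pseudocount of 64 (-0.38, adjusted p = 0.0517), quantile normalization (-0.45, adjusted p = 0.0662) or median centring (-0.44, adjusted p = 0.072). It was also lost without the p75 control (-0.39, adjusted p = 0.211), the UM control (-0.56, adjusted p = 0.098) or the UM mutant (-0.54, adjusted p = 0.106).

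**Figure D3:**
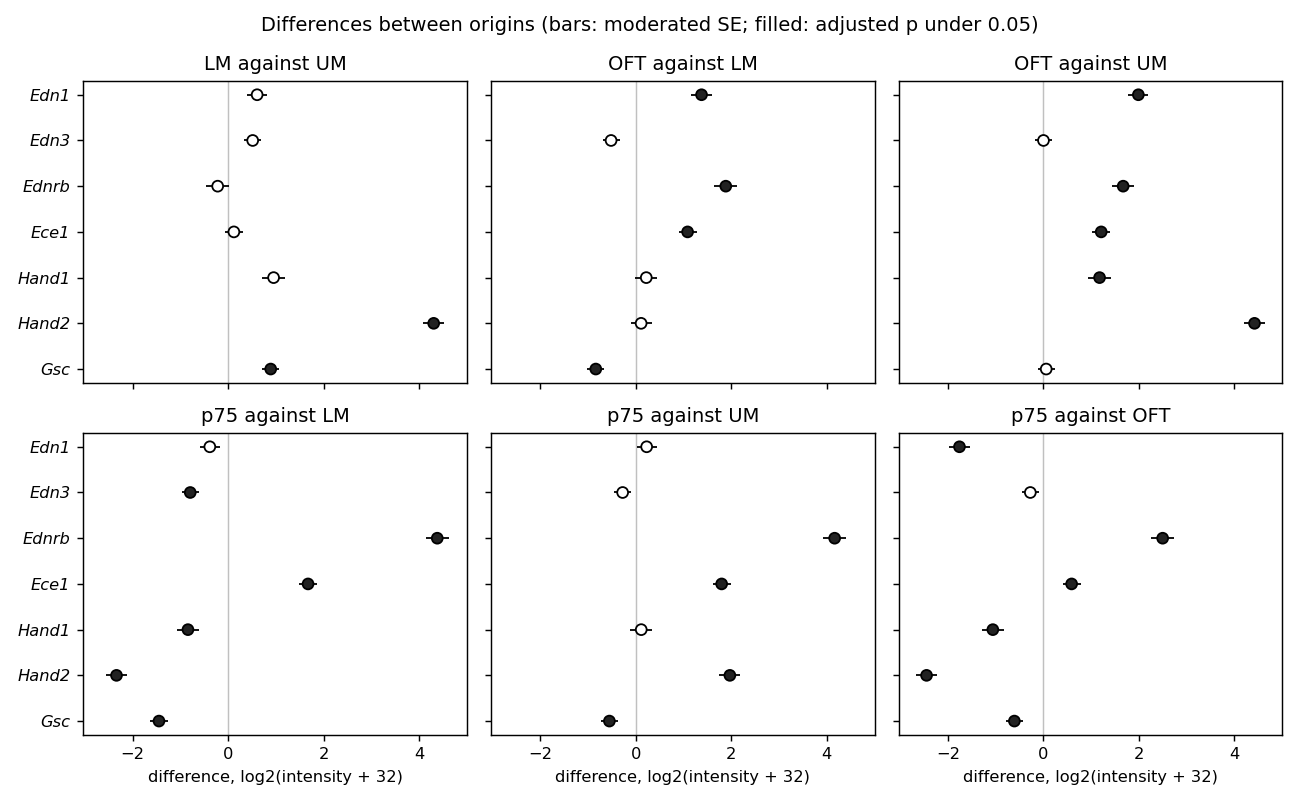
Difference between origins of each measured gene, in log2(intensity + 32) on the horizontal axis, in 6 panels of 1 comparison each; positive means higher in the origin named first, bars are limma's moderated standard error, and filled points have an adjusted p under 0.05. Hand2 lies beyond 4 in LM against UM and OFT against UM, as Ednrb does in p75 against LM and p75 against UM.

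Genes known to act downstream of Ednra in the lower jaw were read beside Hand2 and Gsc. Of Dlx3, Dlx4, Dlx5, Dlx6, Barx1, Nkx3-2, Alx4 and Mef2c, 7 of 8 were tested. In LM against UM, 5 of the 7 were higher and 0 lower, with a list median of 1.07. Dlx5 read 876 and 765 in LM and 225 and 280 in UM, a difference of 1.59 ± 0.20 (adjusted p = 0.000981), and Dlx6 gave 1.51 ± 0.23 (adjusted p = 0.00421). OFT, where Hand2 differed from LM by 0.11 ± 0.22, had lower Dlx levels. In OFT against LM, 5 were lower and 1 higher, with Dlx5 at -2.78 ± 0.20 (adjusted p = 2.47e-06) and Barx1, a homeobox gene of the jaw mesenchyme, at -2.06 ± 0.23 (adjusted p = 9.8e-05). Of 5 tested upper jaw genes, 2 were lower in LM than in UM: Foxl2 at -1.51 ± 0.20 (adjusted p = 0.00188) and Hey1 at -1.01 ± 0.21 (adjusted p = 0.0327). In OFT against LM, 2 of the 5 were higher and 2 lower. Hey1 and Jag1, both of Notch signalling, were higher, by 1.52 ± 0.21 (adjusted p = 0.000458) and 2.23 ± 0.21 (adjusted p = 2.88e-05). Pou3f3 and Irx5 were lower, at -1.99 ± 0.20 (adjusted p = 4.03e-05) and -1.37 ± 0.19 (adjusted p = 0.000531).

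Heart genes that are expressed with Hand1 and Hand2 set OFT apart from LM. Of 8 such genes 7 were tested, and 6 were higher in OFT than in LM and 6 higher than in UM, with 0 lower and list medians of 1.74 and 1.88. Tbx20, a T-box factor of the heart, read 1023 and 1586 in OFT and 1.72 and 4.04 in LM, a difference of 5.23 ± 0.22 (adjusted p = 1.88e-08). Gata6 gave 3.97 ± 0.20 (adjusted p = 9.05e-08). In LM against UM, where Hand2 differed by 4.31, 0 of these genes passed the test in either direction. Among dimerisation and binding partners of Hand factors, Twist2 was higher in LM than in UM (0.99 ± 0.19, adjusted p = 0.0196). In OFT against LM, 1 of the 6 partners was higher, Fhl2 (1.12 ± 0.19, adjusted p = 0.00223), and 3 were lower. These were Tcf4 (-1.11 ± 0.17, adjusted p = 0.00123), Twist1 (-1.06 ± 0.20, adjusted p = 0.00449) and Twist2 (-0.81 ± 0.19, adjusted p = 0.0161). The sympathetic genes, where Hand2 acts in neurons, did not follow Hand2 in LM against UM: 3 of 6 were lower in LM and 0 higher, Gata2 by -2.06 ± 0.21 (adjusted p = 0.00024).

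Genes of the melanocyte and enteric lineages, in which Ednrb acts, were high in the sorted cells with it. Of 8 genes 7 were tested, and 7 were higher in p75 than in LM, 5 higher than in UM, and 4 higher and 2 lower than in OFT. Sox10, a crest factor, read 1512 and 1620 in p75 and 33.1 and 34.4 in LM, a difference of 4.60 ± 0.19 (adjusted p = 4.56e-08). Gfra1, a coreceptor of enteric precursors, gave 2.59 ± 0.19 (adjusted p = 1.9e-06), and Pmel, a melanosome protein, 2.18 ± 0.17 (adjusted p = 4.45e-06). In OFT, the other origin with Ednrb above LM and UM, 3 of the 7 were above LM and 3 above UM, with 0 lower. Against LM these were Ret (2.18 ± 0.28, adjusted p = 0.000246), Mitf (1.49 ± 0.20, adjusted p = 0.000329) and Gfra1 (0.84 ± 0.19, adjusted p = 0.0108). Against UM they were Ret (1.54 ± 0.28, adjusted p = 0.00286), Gfra1 (1.37 ± 0.19, adjusted p = 0.000343) and Mitf (1.25 ± 0.20, adjusted p = 0.00109). Sox10 differed from UM by 0.27 ± 0.19 (adjusted p = 0.434).

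On the signalling side, Gnaq, the G protein subunit through which endothelin receptors act, was higher in OFT than in LM (0.84 ± 0.18, adjusted p = 0.0102) and in p75 than in LM (1.15 ± 0.18, adjusted p = 0.000453). Plcb4, the phospholipase of jaw patterning, was higher in OFT than in LM (0.76 ± 0.18, adjusted p = 0.0185). These were 2 of 7 tested genes of the Gq list in OFT against LM, with 0 lower. In LM against UM, 0 of 7 passed. Of 6 other ligand and processing genes, 2 were higher in p75 than in LM and 0 lower: the proteases Pcsk5 (0.74 ± 0.18, adjusted p = 0.00584) and Furin (0.59 ± 0.18, adjusted p = 0.0207). Mme, a peptidase that degrades endothelins, was lower in OFT than in LM (-1.12 ± 0.21, adjusted p = 0.00457) and than in UM (-1.74 ± 0.21, adjusted p = 0.000154). Edn2, the remaining ligand, was under the filter intensity on both arrays of LM and of OFT and on the control array of p75 and of UM.

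**Figure D4:**
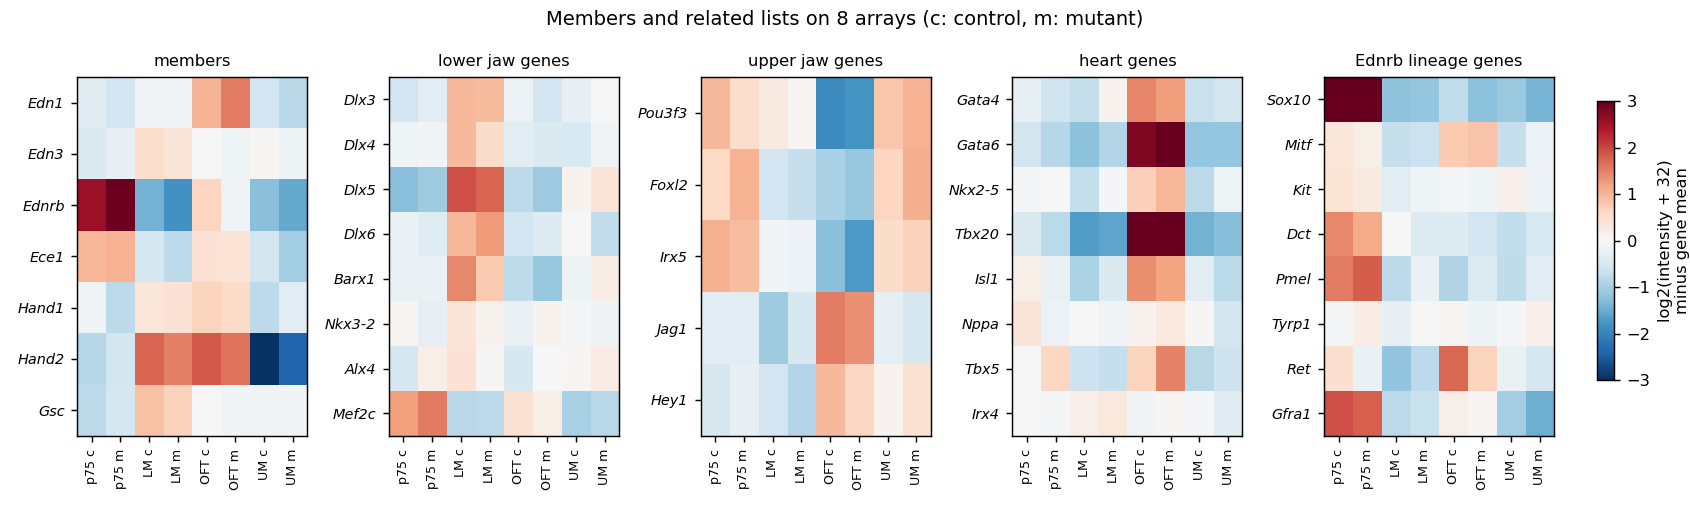
Each cell is log2(intensity + 32) of 1 gene on 1 array minus that gene's mean over the 8 arrays, with colours ending at -3 and 3; arrays run along the horizontal axis and genes along the vertical axis of 5 panels. Dlx3, Dlx5, Dlx6 and Barx1 are highest in LM, with Dlx5 next in UM. Tbx20 and Gata6 are high in OFT alone, whereas Hand2 is high in both LM and OFT.

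The comparison of FAK mutant with control addressed the effect of the mutation on these genes. By limma, 0 of 7 passed, beside 0% of the 13543 genes tested. Over all genes, 410 had an unadjusted p under 0.05 and the smallest adjusted p was 0.75. The differences of the 7 genes, averaged over origins, lay between -0.26 and 0.10. Ednrb had the smallest unadjusted p of them, 0.139, at -0.26 ± 0.17 (adjusted p = 1), and Hand2 gave 0.10 ± 0.16 (adjusted p = 1). Within an origin there was 1 array per genotype, so those differences carry no test. In OFT, Edn1 was higher in the mutant by 0.53, against a range of -0.49 to 0.40 between the 5th and 95th percentiles of all genes, and Ednrb was lower, at -0.76. Its other probe sets gave -0.05 and -0.23 there. The summed neuron markers of the OFT pair were 2338 in the control and 1282 in the mutant, and Ret read 227 and 93.3. In the p75 pair the sums were 4133 and 2335 and Ret read 80.4 and 37.0, but Ednrb was higher in the mutant by 0.37. The sums were 1188 and 725 in UM, with Ednrb at -0.28, and 274 and 519 in LM, with Ednrb at -0.39. These Ednrb values are of the brightest probe set. Probe sets 1423594_a_at and 1426314_at gave 0.02 and -0.01 in p75, -0.26 and 0.03 in UM, and -0.25 and 0.86 in LM. The part of the neuron markers and Ret in the Ednrb difference of OFT was not tested. In UM, Hand2 was higher in the mutant by 0.57, against -0.44 to 0.48, although both UM arrays were dim, and Ece1 was lower there, at -0.46. The other Hand2 probe sets gave -0.06 and 0.01 in UM, and those of Ece1 gave 0.02 and -0.49. In p75, Hand1 was lower, at -0.66, against -0.52 to 0.48, whereas its second probe set gave 0.12. By the brightest probe sets, no measured gene of LM lay outside the percentiles there, -0.53 to 0.57. The list of lower jaw genes had 0 of 7 and the heart list 0 of 7 past the threshold, and no tested gene of the other lists passed.

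**Figure D5:**
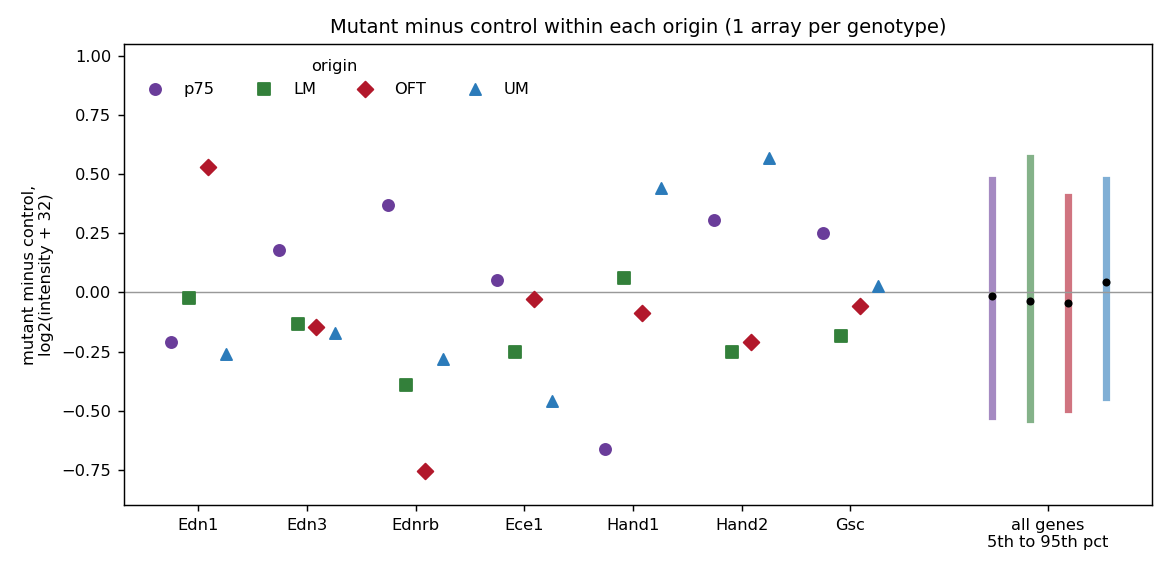
Mutant minus control in log2(intensity + 32) within each origin (vertical axis) for the 7 measured genes, with 1 array per genotype; bars at the right span the 5th to 95th percentile of all 13543 genes in each origin and dots are their medians. Edn1 and Ednrb in OFT, Hand1 in p75, and Hand2 and Ece1 in UM lie outside the bar of their origin.

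Genes whose pattern over the 8 arrays was nearest to each measured gene were ranked by Pearson correlation among 5396 genes with log2 values spanning at least 1. The 8 points share 4 origins, so the values are descriptions. Edn1 was nearest to Casq1, a calcium store protein of muscle (r = 0.989), to Apela (0.987) and to Mylk3, a kinase of heart muscle (0.985). Ednrb was nearest to Col4a1, a basement membrane collagen (0.996), Colgalt1 (0.996) and Mia3 (0.994), and Ece1 to Desi2 (0.995), Ckap4 (0.991) and Lipa (0.987). Edn3 and Gsc shared Cited1 as nearest gene, at 0.952 and 0.983, and Cd24a among the nearest 3, at 0.928 and 0.970. Cited1 read 605 and 407 on the LM arrays and 22.5 to 122 elsewhere. Hand2 was nearest to Rtl3 (0.980), Myl1 (0.972) and Igf2 (0.968), and Hand1 to Vnn1 (0.944), Agtr2 (0.939) and Col9a1 (0.927).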

How the data were processed

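The deposited table holds linear intensities of 45101 probe sets on 8 arrays, and no source used here names the software behind it. The authors' intensities were already scaled, since the mean between the 2nd and 98th percentiles was 150.0 on every array, and no further scaling was applied. Names came from the platform annotation: 34945 probe sets had exactly 1 gene, 932 several and 9160 were not listed, beside 64 control probe sets, and updating symbols changed 0. Each gene took its brightest probe set by mean over the arrays. Genes tested had at least 2 arrays above the 40th percentile, 19.4. Log2(intensity + 32) entered limma 3.58.1 (lmFit, eBayes, under R 4.3.3) with origin and genotype terms, 3 residual degrees of freedom, a prior of 9.055 and Benjamini-Hochberg adjustment. Origin pairs the control and mutant arrays, as the labels name it for both. The number of arrays limits the precision. The fit was tested on simulated data. Alternatives were other pseudocounts, filters, normalizations, probe set averaging, variance models, no block and arrays left out. Genes, lists and motifs were chosen with earlier results of these data known. Besides all 8 genes, the text names at most 4 tested genes per list and comparison, those that differed most, and 3 nearest patterns per gene.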

Additional observations from a re-analysis of the deposited data

Results flagged for a closer look

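By its brightest probe set, each of the 7 measured genes had a mutant minus control difference of 1 sign in some origins and of the other sign in others. These rest on 1 array per genotype and the differences between origins were not tested. Both signs also occur in 90.8% of all tested genes (12300 of 13543). The values, in log2(intensity + 32), follow. Edn1 was 0.53 in OFT and -0.26 in UM. Edn3 was 0.18 in p75 and -0.17 in UM, but its other probe sets gave -0.09, -0.18 and -0.74 in p75. In OFT they gave 0.27, 0.39 and 0.27, where the brightest gave -0.15. Ednrb was 0.37 in p75 and -0.76 in OFT, and its other probe sets gave 0.02 and -0.01 in p75 and -0.05 and -0.23 in OFT. Ece1 was 0.052 in p75 and -0.46 in UM, and its other probe sets gave -0.33 and -0.26 in p75 and 0.02 and -0.49 in UM. Hand1 was 0.44 in UM and -0.66 in p75, where its second probe set gave 0.20 and 0.12. Hand2 was 0.57 in UM and -0.25 in LM, and its other probe sets gave -0.06 and 0.01 in UM and -0.20 and -0.13 in LM. Gsc was 0.25 in p75 and -0.19 in LM. By the brightest probe sets, the range over the 4 origins was widest for Ednrb (1.13) and Hand1 (1.10), where all genes had a median range of 0.57 and a 95th percentile of 1.17.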

How the results depend on the processing

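Of the log2 differences of the 7 genes recomputed under the alternatives, 920 kept their direction and their side of the threshold, 37 lost the call, 2 gained one and 28 changed sign. Among mutant minus control differences within an origin, 102 moved by less than the spread and 10 by more. None of the 27 called differences changed sign. The number of genes called in LM against UM fell from 2 to 1 with log2(intensity + 1), with no filter and without the OFT pair, and was 1 to 2 with each array left out in turn, and it rose to 3 with all probe sets averaged. In OFT against LM it fell from 4 to 2 with log2(intensity + 1). The sign changes were in uncalled values. For mutant against control, Edn1 (0.01) gave -0.54 with log2(intensity + 1), -0.0097 with median centring and -0.16 without the OFT pair, and -0.16 to 0.10 with each array left out. Hand1 (-0.06) gave 0.14 without the p75 pair and -0.23 to 0.14 with arrays left out. Hand2 (0.10) gave -0.051 without the UM pair and -0.051 to 0.22 with arrays left out. Gsc (0.01) gave -0.0041 with a pseudocount of 64, -0.0082 with quantile normalization, -0.010 with median centring and -0.072 without the p75 pair, and -0.072 to 0.073 with arrays left out. With all probe sets averaged, Ece1 in LM against UM gave -0.011, Hand2 in OFT against LM -0.31 and Edn3 in OFT against UM -0.13. Edn3 there gave -0.011 with quantile normalization. With arrays left out, these were -0.068 to 0.31, -0.12 to 0.35 and -0.068 to 0.069, and Hand1 in p75 against UM was -0.28 to 0.52. The cause was not tested. A fit with no replicate block left out the origin term for mutant against control and the genotype term for comparisons of origins. It called 0 of the 7 genes for mutant against control. Its counts for origins were 2, 4, 5, 6, 4 and 6, as with both terms. Counts over all genes moved more: LM against UM called 211 genes (64 to 223 over the alternatives), OFT against LM 1483 (505 to 1691), OFT against UM 1638 (646 to 1895), p75 against LM 5691 (3227 to 5909), p75 against UM 5684 (3086 to 5986) and p75 against OFT 4693 (1816 to 5041). The lowest counts came with log2(intensity + 1) in LM against UM, without the OFT control array in OFT against LM and against UM, without the p75 mutant array in p75 against LM and against UM, and without the OFT mutant array in p75 against OFT. Median centring shifted p75 against UM by 0.11, and the share of higher calls in p75 against OFT was 55.5% with the deposited scaling and 65.8% with it. Intensities under the filter, such as Edn1 in UM and p75 and Hand1 in UM, limit any fold involving them.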
